A study of Mus musculus with 12 samples.

Results

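The 10 genes described here mark the hepatocytes around the central vein of the liver lobule or report Wnt/β-catenin signaling there: Glul, Cyp2e1, Cyp1a2, Oat, Axin2, Lgr5, Tbx3, Rnf43, Slc1a2 and Rhbg. They were taken by symbol, through the RefSeq accession of each probe, from 12 single-color Agilent arrays of mouse liver RNA. The array carried 14 probes for them out of 39429 probes, and all 10 genes were among the 16916 genes tested. LKO mice carried Alb+/Cre and Phgdh flox/flox, so that Cre, expressed under the albumin promoter, deletes Phgdh in hepatocytes while the other cells of the liver keep the gene. Phgdh encodes the first enzyme of serine synthesis. The control group, Floxed, consisted of littermates with Phgdh flox/flox and no Cre. Both groups were C57BL/6 males, 30 weeks old, on chow with 20% casein, and each had 6 mice with 1 array per mouse. The arrays lay on 3 slides. The first carried Floxed mice 1 to 4, the second Floxed mice 5 and 6 with the mice labeled LKO 1 and LKO 2, and the last LKO mice 3 to 6, so that slide 2 alone carried both genotypes.

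The liver lobule is zonated. Blood flows from the portal vein to the central vein, and endothelial cells of the central vein release Wnt2, Wnt9b and the R-spondin Rspo3, which keep β-catenin active in the hepatocytes next to them. Active β-catenin, together with TCF/LEF factors on DNA, maintains glutamine synthesis, xenobiotic oxidation and other pericentral functions, and it restrains the periportal programs of gluconeogenesis and urea synthesis.

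Sequences are shown for the gene starts of Slc1a2, Lect2, Axin2 and Glul. The table of RefSeq promoters used here (build GRCm38.p6, 250 bases before to 50 after each gene start) gave windows for 7 of the 10 genes, 8 windows in all. Lgr5, Tbx3 and Rhbg had no entry. Each window was searched on both strands for the core letters CTTTGAT of the TCF/LEF motif, which read ATCAAAG on the other strand. Slc1a2 was the member whose window held them, at chr2:102706188-102706487 on the plus strand. Lect2, a pericentral gene outside the 10 whose values ran most closely with those of Axin2, held them at chr13:56548489-56548788 on the minus strand. Axin2 (chr11:108920099-108920398, plus strand) and Glul (chr1:153899679-153899978, plus strand) are shown beside them as common readouts of the pathway, without a match in these windows. Capitals mark the motif, which starts at position -207 from the gene start in Slc1a2 and -32 in Lect2, and every sequence runs 5′ to 3′ on the strand of the gene.
Slc1a2: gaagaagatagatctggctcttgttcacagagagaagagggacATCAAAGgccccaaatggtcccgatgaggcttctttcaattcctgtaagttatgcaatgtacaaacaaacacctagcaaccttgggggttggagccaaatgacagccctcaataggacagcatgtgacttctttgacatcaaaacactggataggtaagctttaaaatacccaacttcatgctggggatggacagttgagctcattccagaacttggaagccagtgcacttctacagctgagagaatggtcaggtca
Lect2: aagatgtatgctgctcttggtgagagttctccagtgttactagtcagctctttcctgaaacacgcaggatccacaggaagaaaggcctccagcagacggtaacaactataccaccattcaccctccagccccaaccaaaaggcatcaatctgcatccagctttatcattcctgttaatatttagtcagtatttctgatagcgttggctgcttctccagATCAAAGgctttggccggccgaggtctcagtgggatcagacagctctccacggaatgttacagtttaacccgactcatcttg
Axin2: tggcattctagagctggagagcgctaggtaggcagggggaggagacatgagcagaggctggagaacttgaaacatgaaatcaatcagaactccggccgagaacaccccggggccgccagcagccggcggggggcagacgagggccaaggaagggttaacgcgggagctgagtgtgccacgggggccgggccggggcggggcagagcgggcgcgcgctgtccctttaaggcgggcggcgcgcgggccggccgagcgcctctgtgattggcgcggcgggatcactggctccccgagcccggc
Glul: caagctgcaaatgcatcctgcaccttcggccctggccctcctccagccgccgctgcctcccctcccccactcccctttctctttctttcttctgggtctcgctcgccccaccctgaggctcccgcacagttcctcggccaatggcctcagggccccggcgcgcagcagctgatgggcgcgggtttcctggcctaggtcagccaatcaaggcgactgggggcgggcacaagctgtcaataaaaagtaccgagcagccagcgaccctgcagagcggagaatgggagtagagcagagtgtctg
Of all 32851 windows in the table, 1225 (3.73%) held the same letters. A match describes the letters of a window and does not identify a bound site.

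Intensities were log2-transformed and quantile normalized, and genotypes were compared with limma. Genes with a limma p below 0.05 before adjustment, the criterion of the array methods, are termed called. Of 16916 genes 1413 were called (8.35%), 832 higher in LKO (4.92%) and 581 lower (3.43%), and after Benjamini-Hochberg adjustment none passed (0%). The 8.35% is the share to set beside every list count below from this fit, also where no gene of a list was called. The share of called genes that were higher in LKO was 58.9%, against 78.1% with arrays scaled to their 75th percentile. That percentile lay between 239 and 473 over the 12 arrays, lowest in LKO mouse 5, and 21614 to 24252 probes per array were well above background. Phgdh itself differed by -0.48 on the log2 scale (exact permutation p = 0.0346, limma p = 0.0179 unadjusted). LKO mice 3 to 6, the arrays of slide 3, lay at 4.23 to 4.66, below all Floxed mice. The Phgdh difference was -0.05 on slide 2, and it was called neither with slide as a fixed block nor with 75th percentile scaling (-0.34). The mice labeled LKO 1 (5.07) and LKO 2 (5.30) lay inside the Floxed range of 4.81 to 5.50. For fits over all slides, results that rest on them are therefore given with and without them. Differences on slide 2 or with slide as a fixed block take their LKO side from these mice alone and cannot be given without them. With both left out, 2172 genes were called (12.8%). All LKO arrays then lay on slide 3 and all Floxed arrays on slides 1 and 2. Calls from that fit, for any gene below, therefore cannot be told apart from slide differences. Of the 7 hepatocyte markers tested, among them Alb, Apoa1 and Ttr, none was called over the 12 mice. Apoa2, also among them, had the same value, 18.86, on all 12 arrays after quantile normalization, so it could not be called.

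At the level of the whole group, the pericentral and Wnt target genes did not separate the genotypes. Of the 10 genes 1 was called, Lgr5, beside a background of 8.35% of all genes, so this count says nothing particular about the group. Without the mice labeled LKO 1 and LKO 2 none of the 10 was called. Values of LKO and Floxed mice overlapped for all 10 genes, while 0.296% of all genes had no overlap. Over the 12 mice 7 genes had a higher mean in LKO and 3 a lower one. Their median log2 difference was 0.05, beside -0.0035 for all genes tested. In the fit without slide, the widest bound of a 95% interval among the 10 genes was 0.655 on the log2 scale. That bound does not hold with slide as a fixed block, where Oat differed by -0.63 with a standard error of 0.26. A difference of 1 is therefore not excluded for every gene. In whole liver RNA, fewer cells of a type and less RNA per cell cannot be told apart.

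**Figure D1:**
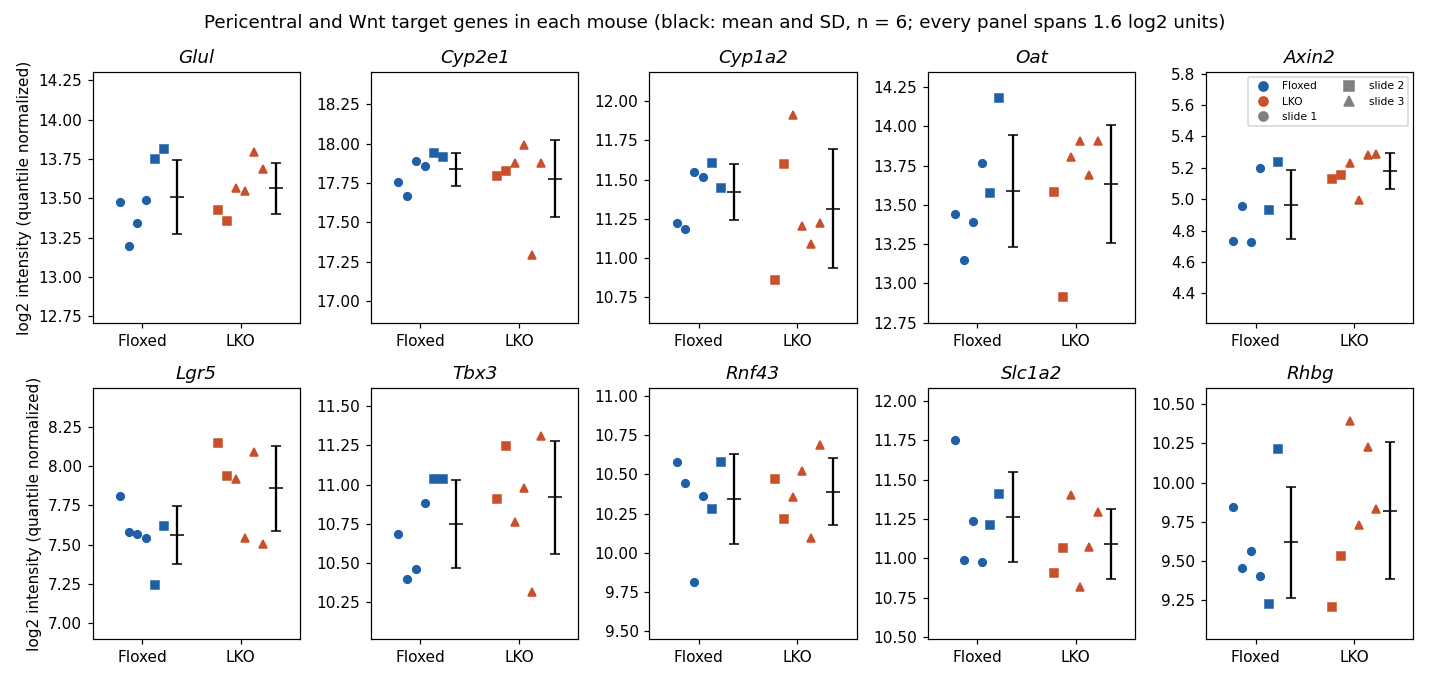
Log2 intensity of the 10 genes in each of the 12 mice (vertical axes, 1.6 log2 units in every panel), by genotype, with the symbol giving the slide and black marks the mean and SD of 6 mice. The genotypes overlap in every panel, and in Glul the Floxed mice of slide 2, at 13.75 and 13.81, lie above the LKO mice of the same slide, at 13.43 and 13.36.

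Glul encodes glutamine synthetase, which captures ammonia in the last rows of hepatocytes before the central vein. Its log2 intensity spanned 13.20 to 13.81 among Floxed mice (median 13.48) and 13.36 to 13.79 among LKO mice (median 13.55). The LKO range lay within the Floxed range. The difference was 0.05 (95% interval -0.20 to 0.30, a fold between 0.872 and 1.23), with a two-sided exact permutation p of 0.654 and a limma p of 0.658. On slide 2, Floxed mice 5 and 6 had the highest Floxed values, 13.75 and 13.81. The mice labeled LKO 1 and LKO 2 had the lowest LKO values, 13.43 and 13.36. The slide 2 difference was therefore -0.39, opposite to the overall one, and Glul was called lower in LKO when slide was fitted as a fixed block (limma p of 0.0181, adjusted p of 1). Without the mice labeled LKO 1 and LKO 2 the difference was 0.14 and was not called.

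Oat, ornithine aminotransferase, links ornithine to glutamate and is expressed in the same pericentral rows as Glul. Floxed mice had log2 intensities of 13.15 to 14.18 (median 13.51) and LKO mice of 12.91 to 13.91 (median 13.75). The lowest value of all belonged to the mouse labeled LKO 2 and the highest to Floxed mouse 6, both on slide 2. The overall difference was 0.05 (95% interval -0.37 to 0.47, exact permutation p = 0.820). On slide 2 it was -0.63, a fold of 0.646, which was called with slide as a fixed block (limma p of 0.0335, adjusted p of 1). Without the mice labeled LKO 1 and LKO 2 the difference was 0.24 and was not called.

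Rhbg, an ammonia transporter of the Rh glycoprotein family in the membrane of pericentral hepatocytes, had log2 intensities of 9.23 to 10.21 in Floxed mice (median 9.51) and of 9.21 to 10.39 in LKO mice (median 9.78). Floxed mouse 6 had the highest Floxed value, and the mouse labeled LKO 1 the lowest value of the 12. The difference was 0.20 overall (95% interval -0.25 to 0.65, exact permutation p = 0.396) and -0.35 on slide 2. Without the mice labeled LKO 1 and LKO 2 it was 0.43, with a limma p of 0.0534. Among the 10 genes the spread of Rhbg within genotypes was the widest, at percentile 86.7 of the spreads of all genes tested, and that of Axin2 the narrowest, at percentile 32.7.

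Slc1a2, the glutamate transporter GLT-1, brings glutamate into pericentral hepatocytes, where glutamine synthetase uses it. Floxed values spanned 10.97 to 11.75 (median 11.23) and LKO values 10.82 to 11.40 (median 11.07), with Floxed mouse 1 above the other 11 mice. The difference was -0.17 (95% interval -0.48 to 0.13, exact permutation p = 0.279), and -0.33 on slide 2. A second probe, kept by the same filter, also gave -0.17. Another passed the background flag on 5 arrays of each genotype and gave -0.33, and no direction is read from it.

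The other genes that handle glutamine and ammonia, 19 in the list used, included 14 that were tested. None of the 14 was called, and their median log2 difference was 0.01. The largest difference, -0.43, was that of Slc38a2, an amino acid transporter of the cell membrane (exact permutation p = 0.106). Slc38a2 was called without any one of Floxed mice 2 and 6, the mouse labeled LKO 1 and LKO mouse 4, where its difference lay between -0.50 and -0.55, and with normexp background correction (-0.45) or slide as a random block (-0.45).

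Cyp2e1 and Cyp1a2 are cytochromes P450 of the pericentral zone, the first oxidizing ethanol and acetaminophen, the second caffeine and many aromatic amines. Cyp2e1 spanned 17.67 to 17.94 among Floxed mice (median 17.87) and 17.29 to 17.99 among LKO mice (median 17.85). LKO mouse 5 was the lowest of the 12, and the other 5 LKO mice lay between 17.79 and 17.99. The difference was -0.06 (95% interval -0.30 to 0.17, exact permutation p = 0.719), and 0.03 without LKO mouse 5, so that its sign rested on this mouse. The second Cyp2e1 probe was also lowest in LKO mouse 5, at 15.27, and differed by -0.14.

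Cyp1a2 had log2 intensities of 11.18 to 11.61 in Floxed mice (median 11.48) and of 10.86 to 11.91 in LKO mice (median 11.21). The LKO range extended past the Floxed range at both ends, with the mouse labeled LKO 1 lowest and LKO mouse 3 highest. The difference was -0.11 (95% interval -0.45 to 0.24, exact permutation p = 0.571), and -0.30 on slide 2. Cyp1a2 is also a target of the aryl hydrocarbon receptor. Of 6 genes listed for that receptor's pathway 3 were tested, Tiparp, Nqo1 and Arnt, and none was called. Nqo1, a quinone reductase, had the largest difference, 0.21 (exact permutation p = 0.177), and was called without Floxed mouse 2, at 0.29. Cyp1a1, Cyp1b1 and Ahrr were not well above background on all arrays.

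Axin2 is a scaffold of the complex that destroys β-catenin and, as a direct target, a feedback inhibitor widely used to read Wnt activity. Its log2 intensity spanned 4.73 to 5.24 among Floxed mice (median 4.94) and 4.99 to 5.29 among LKO mice (median 5.19). All 6 LKO values lay above the Floxed median, and 2 lay above the highest Floxed value. The difference was 0.21 (95% interval -0.01 to 0.44, a fold of 1.16), with an exact permutation p of 0.0649, a limma p of 0.0582 and an adjusted p of 0.621, so Axin2 was not called. It was called without Floxed mouse 4 (0.26), Floxed mouse 6 (0.27) or LKO mouse 4 (0.25), with slide as a random block (0.23) and with arrays scaled to their 75th percentile (0.33). On slide 2, and with normexp background correction over all mice, the difference was 0.05. The normexp setting adds an offset of 50, which narrows log2 differences of dim genes. The second Axin2 probe was well above background on 1 array of each genotype, and no direction is read from it.

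Lgr5 is a receptor for R-spondins and, in the liver, a target of the pathway that it strengthens. Floxed mice 1 to 6 had log2 intensities of 7.81, 7.58, 7.57, 7.54, 7.24 and 7.62. LKO mice 1 to 6 had 8.15, 7.94, 7.92, 7.54, 8.09 and 7.51. Of the LKO values 4 lay above the highest Floxed value, while LKO mice 4 and 6 lay within the Floxed range. Lgr5 was higher in LKO by 0.30 (95% interval 0.02 to 0.58, a fold of 1.23), with an exact permutation p of 0.0584, a limma p of 0.0393 and an adjusted p of 0.565.

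The Lgr5 call was sensitive to single mice. It was lost without any one of Floxed mice 2, 3, 4 and 5, the mice labeled LKO 1 and LKO 2, and LKO mice 3 and 5. With each of the 12 mice left out in turn, the difference stayed between 0.23 and 0.37 and the limma p between 0.0124 and 0.0932. Without both mice labeled LKO 1 and LKO 2 it was 0.20 and was not called. On slide 2, where Floxed mouse 5 had the lowest Lgr5 value of all and the mouse labeled LKO 1 the highest, the difference was 0.61, called with slide as a fixed block (limma p of 0.0152, adjusted p of 1). With the replicate number as a block, which called 8.44% of genes, none of the 10 was called.

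Tbx3, a T-box transcription factor that β-catenin activates in pericentral hepatocytes, spanned 10.40 to 11.04 among Floxed mice (median 10.79) and 10.32 to 11.31 among LKO mice (median 10.94). LKO mouse 5 was the lowest of the 12, as for Cyp2e1. The difference was 0.17 (95% interval -0.20 to 0.54, exact permutation p = 0.368), 0.29 without LKO mouse 5 and 0.04 on slide 2, and none of these was called.

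Rnf43 is a ubiquitin ligase that removes Frizzled receptors from the membrane, an inhibitor made in response to the signal it limits. Floxed values spanned 9.81 to 10.58 (median 10.40) and LKO values 10.09 to 10.69 (median 10.41). The difference was 0.05 (95% interval -0.25 to 0.35, exact permutation p = 0.764), and it was -0.06 without Floxed mouse 3, the lowest of the 12, -0.01 without LKO mouse 6 and -0.09 on slide 2. Znrf3, the paralog of Rnf43 with the same role, differed by -0.13 (exact permutation p = 0.162), by 0.03 with arrays scaled to their 75th percentile, and by -0.23 without the mice labeled LKO 1 and LKO 2, where it was called. Znrf3 was very dim, at percentile 1.93 of mean intensity among the genes tested.

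Slide 2 compares 2 Floxed with 2 LKO mice. On it 7 of the 10 genes were lower in LKO and 3 higher, and the median log2 difference was -0.21, beside 0.018 for all genes. The sign on slide 2 was that of the overall difference for 6 of the 10 genes, close to the 60.7% of all genes with the same sign. Genotypes did not overlap on this slide for 4 of the 10, lower in LKO for Glul, Cyp2e1 and Slc1a2 and higher for Lgr5, beside 25.5% of all genes. Fitting slide as a fixed block called 317 of 16916 genes (1.87%), and 3 of them were among the 10, Glul and Oat lower and Lgr5 higher. No gene passed adjustment in that fit, where the smallest adjusted p was 0.310, and its difference between genotypes comes from the 4 mice of slide 2 alone. With slide as a random block 1925 genes were called (11.4%), among them Lgr5 and Axin2. How much of the overall differences the slides carry was not tested.

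**Figure D2:**
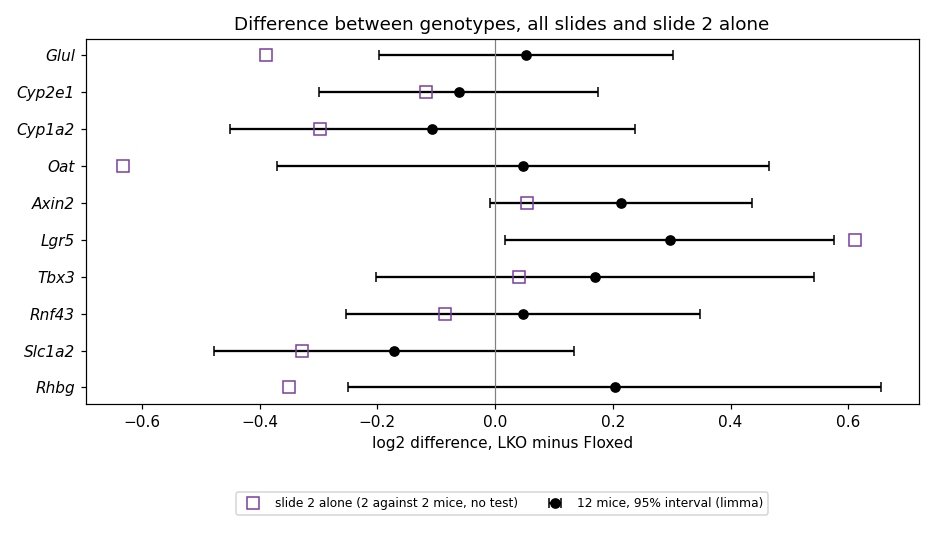
Log2 difference between LKO and Floxed (horizontal axis) for the 10 genes over all 12 mice, as points with 95% intervals from limma, and on slide 2 alone as open squares. The interval of Lgr5 is the one that excludes 0, and for Glul (-0.39), Oat (-0.63), Rhbg (-0.35) and Lgr5 (0.61) the slide 2 value lies outside the interval of the 12 mice.

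Genes of the same zone outside the 10 were examined next. Of 25 other pericentral genes tested 2 were called, both higher, beside 4.92% of all genes called higher, and the median difference was -0.02. Car14, a membrane carbonic anhydrase, spanned 11.71 to 12.02 among Floxed mice and 11.93 to 12.39 among LKO mice, with LKO mouse 5 highest, and rose by 0.21 (exact permutation p = 0.0130). Its call was lost without any one of Floxed mice 1, 4, 5 and 6 or LKO mice 3 and 5, with a lowest value of 0.14 without LKO mouse 5. Gstm1, a glutathione transferase with close paralogs that its probe may share, rose by 0.20 (exact permutation p = 0.0303). Its call was lost without any one of Floxed mice 1, 3, 4, 5 and 6, the mice labeled LKO 1 and LKO 2, or LKO mouse 4, and without both of the former LKO mice (0.19). Both calls were also lost with arrays scaled to their 75th percentile, with normexp and with slide as a fixed block, and that of Gstm1 with the mean of a gene's probes.

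Periportal genes, the opposite pole of the lobule, were described for contrast. Of 23 tested 1 was called, higher, beside the same 4.92%, and the median difference was 0.01. Apoa4, an apolipoprotein of secreted lipoproteins, spanned 7.42 to 9.03 among Floxed mice and 8.49 to 9.84 among LKO mice, and its difference of 0.69 was called (limma p of 0.0381), with an exact permutation p of 0.0714. The call was lost without any one of Floxed mice 1, 2, 5 and 6 or LKO mice 4, 5 and 6, and the difference was smallest, 0.49, without Floxed mouse 1. Apoa4 was not called with slide as a fixed block (0.27), without the filter on dim probes or by the methods' test. Cyp2f2, a P450 that marks the periportal zone, differed by 0.01 (95% interval -0.25 to 0.27), and by -0.02 with arrays scaled to their 75th percentile. Pck1, an enzyme that commits to gluconeogenesis, differed by -0.37 with an interval from -1.19 to 0.46, and by -0.07 without LKO mouse 5, whose value of 12.97 was the lowest.

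A summary of each zone was formed per mouse as the mean deviation of its genes from their own means over the 12 mice. For the 10 genes it was -0.03 ± 0.16 (SD, n = 6) in the Floxed group and 0.03 ± 0.11 (SD, n = 6) in the LKO group. It was highest in Floxed mouse 6, at 0.23, and LKO mouse 3, at 0.20, and lowest in Floxed mouse 2, at -0.22. The difference between genotypes was 0.07 over all mice, smaller than the SD of either group, and -0.15 on slide 2. It was -0.01 for the 25 other pericentral genes and -0.0005 for the 23 periportal genes. Floxed mouse 6 was also highest for the other pericentral genes, at 0.13, and lowest for the periportal genes, at -0.15.

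**Figure D3:**
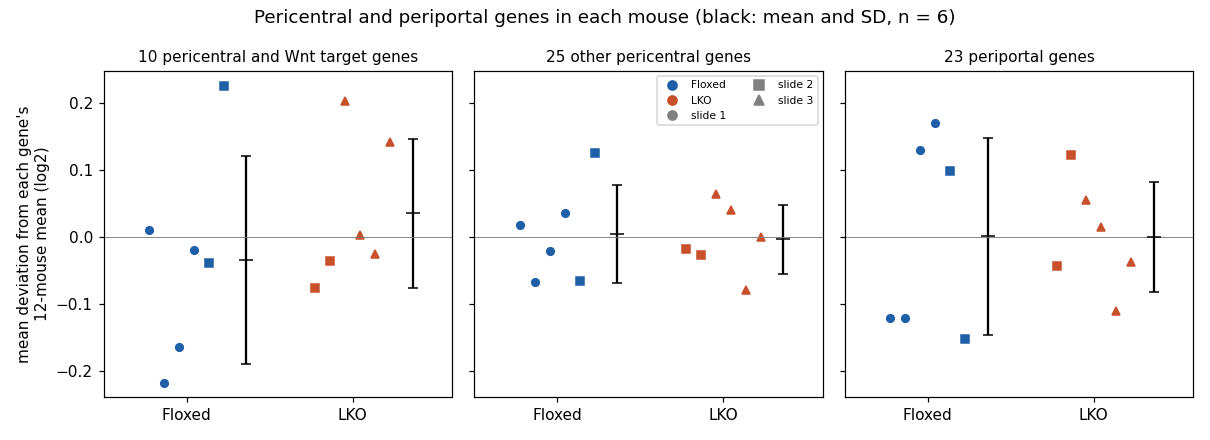
Mean deviation of each gene set from its genes' 12-mouse means (vertical axis, log2) in each mouse, by genotype, with symbols for the slide and black marks for the mean and SD of 6 mice. Floxed mouse 6, on slide 2, is highest in both pericentral sets, at 0.23 and 0.13, and lowest in the periportal set, at -0.15.

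Upstream of the pericentral genes stand the ligands. Of 25 Wnt ligands, R-spondins and secretion genes, 10 were well above background on all arrays and none was called, with a median of -0.02. The ligands of the central vein differed by 0.03 for Wnt2 (exact permutation p = 0.903), -0.20 for Wnt9b (exact permutation p = 0.379) and -0.0004 for Rspo3 (95% interval -0.23 to 0.23). Wnt2 and Wnt9b were dim, at percentiles 3.78 and 9.72 of mean intensity among the genes tested. Wnt2 turned sign without any one of Floxed mouse 3, the mouse labeled LKO 1 and LKO mouse 3, and was -0.13 without the last. The list of central vein endothelium markers holds these 3 ligands with Thbd, Cdh13 and Kit, so that it partly restates them. None of its 6 genes was called, and their summed intensity was 611 to 764 in Floxed mice against 624 to 820 in LKO mice.

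Wnt16, another ligand, had the largest difference of this list, 0.52 (exact permutation p = 0.0671). Wnt16 was dim, at percentile 5.70 of mean intensity among the genes tested, and its values followed the slide. The 4 LKO mice of slide 3 lay between 5.35 and 5.43, and the other 8 mice, of both genotypes, between 4.02 and 4.66. On slide 2 the difference was -0.27. Wnt16 was called without the mouse labeled LKO 1 (0.71), without the mouse labeled LKO 2 (0.66) and without both (0.94). It was also called with 75th percentile scaling (0.64), slide as a random block (0.59), the mean of probes (0.52) and normexp, where the difference was 0.19. The endothelial marker Pecam1 was divided in the same way, 6.39 to 6.78 on slide 3 and 5.36 to 5.89 elsewhere. It rose by 0.70 overall (exact permutation p = 0.00866), and the slide 2 difference was 0.04. Of 9 endothelial markers it was the 1 called, beside 8.35% of all genes. The summed intensity of these markers was 21234 to 24023 in Floxed mice against 20475 to 28909 in LKO mice. Their part in the ligand values was not tested.

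Of 17 receptors and co-receptors 9 were tested, none was called, and the median was -0.06. Ryk, a receptor-like kinase that binds Wnt proteins, had the largest difference, -0.14 (exact permutation p = 0.225). It was 0.10 on slide 2, and -0.26 and called without the mice labeled LKO 1 and LKO 2. Lgr4, an R-spondin receptor related to Lgr5, differed by -0.10 (exact permutation p = 0.569), and by 0.05 without LKO mouse 5. Secreted antagonists were mostly dim, with 3 of 12 tested and none called. Sfrp5, a decoy for Wnt ligands, differed by -0.21 (exact permutation p = 0.353), and by -0.45 without the mice labeled LKO 1 and LKO 2, where it was called. Sfrp5 was very dim, at percentile 0.171 of mean intensity among the genes tested.

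Inside the cell, 27 of 29 genes of the destruction complex and its nuclear partners were tested. Of these 2 were called, both lower, beside 3.43% of all genes called lower, and the median was -0.03. Ctnnb1, which encodes β-catenin, lay between 10.32 and 10.60 in all Floxed mice and between 10.35 and 10.56 in all LKO mice, and the difference was 0.001 with a 95% interval from -0.16 to 0.16. Apc, a scaffold of the complex, differed by -0.05 with an interval from -0.39 to 0.29.

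Tle4, a corepressor bound by TCF/LEF factors, spanned 4.51 to 5.22 among Floxed mice and 3.96 to 4.51 among LKO mice, and fell by 0.57 (exact permutation p = 0.00433, adjusted p = 0.257). Its signal was dim, at percentile 3.88 of mean intensity among the genes tested. The 4 LKO mice of slide 3, at 3.96 to 4.33, lay below the other 8, whose lowest value was 4.48. Tnks, tankyrase, which marks Axin proteins for degradation, fell by 0.47 (exact permutation p = 0.00866), and all 4 LKO mice of slide 3, at 4.45 to 5.11, lay below the other 8. With normexp the Tnks difference was -0.15 and was not called. Tnks was dim, at percentile 11.9 of mean intensity, where the normexp offset narrows log2 differences. On slide 2 the differences were -0.37 for Tle4 and -0.25 for Tnks, and neither was called with slide as a fixed block.

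Other Wnt/β-catenin targets were tested for 14 of 20 listed. Of these 2 were called, both lower, beside 3.43% of all genes called lower, and the median was -0.15. The count in either direction was 4 with slide as a random block, beside 11.4% of all genes. It was 5 without the mice labeled LKO 1 and LKO 2, beside 12.8%, and 0 with slide as a fixed block, beside 1.87%. Without LKO mouse 5 it was 4 and with normexp 1, where the share of all genes is not given here. The counts of 4 and 5 include Sp5 as a higher call. Sp5, a transcription factor induced by Wnt and named here after its values were seen, differed by 0.30 (exact permutation p = 0.102) and by -0.20 on slide 2, and it was called higher without LKO mouse 5 (0.36), without the mice labeled LKO 1 and LKO 2 (0.40) and with slide as a random block (0.35). Ccnd1, the D-type cyclin of cell cycle entry, spanned 9.03 to 9.79 among Floxed mice and 8.69 to 9.26 among LKO mice, and fell by 0.39 (exact permutation p = 0.0173, adjusted p = 0.409), with -0.42 on slide 2. Tcf7, a TCF/LEF factor most abundant in T cells, spanned 4.90 to 5.66 among Floxed mice and 4.62 to 5.10 among LKO mice, and fell by 0.41 (exact permutation p = 0.0195). With normexp the Tcf7 difference was -0.08 and was not called. Tcf7 was dim, at percentile 9.66 of mean intensity, where the normexp offset narrows log2 differences. Of 8 lymphocyte markers 4 were tested and none was called, with summed intensities of 10501 to 39672 in Floxed mice against 12361 to 23994 in LKO mice, and their part in the Tcf7 value was not tested. Ccnd1 and Tcf7 were called without each mouse in turn, and neither was called with slide as a fixed block.

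Among 12 transcription factors and pathway genes that feed into zonation 2 were called, both lower, beside 3.43% of all genes, and the median was -0.14. Foxa3, a forkhead factor of hepatocytes, was without overlap between genotypes, at 9.74 to 10.33 in Floxed mice against 8.93 to 9.73 in LKO mice. It fell by 0.65 (exact permutation p = 0.00216), the slide 2 difference was -0.57, and it was called with slide as a fixed block. Foxa1, of the same family, fell by 0.66 (exact permutation p = 0.0303), and was not called with slide as a fixed block or without the mice labeled LKO 1 and LKO 2, where the difference was -0.53.

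**Figure D4:**
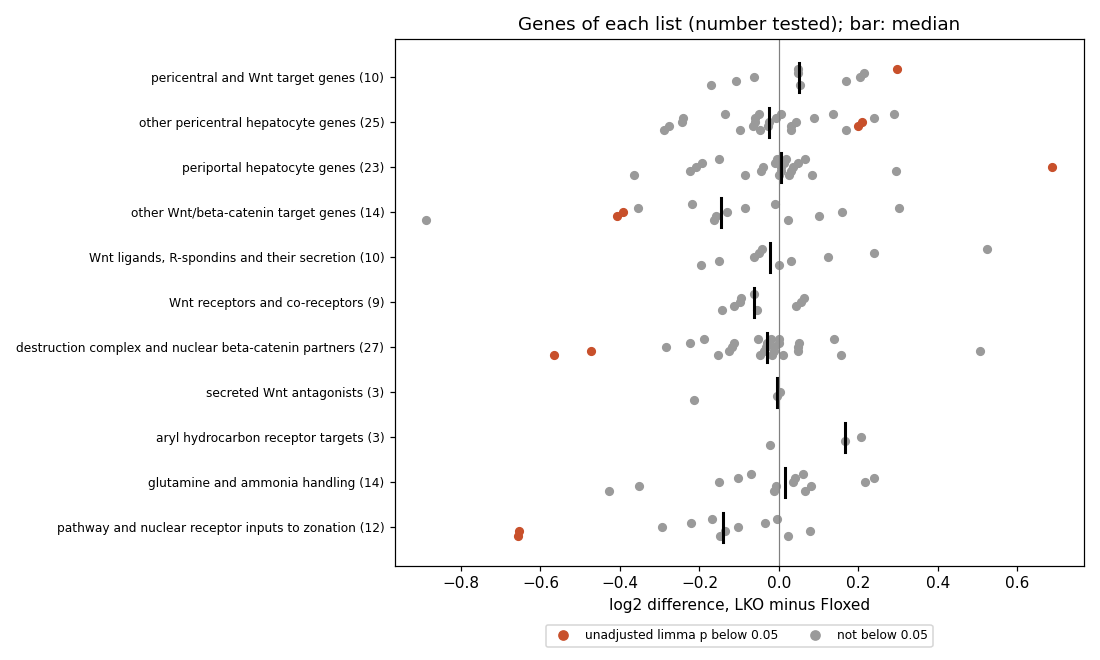
Log2 difference between LKO and Floxed (horizontal axis) for each gene of the 11 lists, with the number tested in brackets, called genes in orange and the list's median as a bar. The higher calls stand in the 3 hepatocyte zonation lists at the top, Lgr5 (0.30), Car14 (0.21), Gstm1 (0.20) and Apoa4 (0.69), and the other 6 calls are lower.

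The 10 genes were also compared with each other across mice. Over their 45 pairs, Pearson's r across the 12 mice ranged from -0.56 to 0.74 with a median of 0.20, and 30 pairs were above 0. Of the pairs 2 had an unadjusted permutation p below 0.05, and none remained after Benjamini-Hochberg adjustment over the 45. The points share slides and genotypes. LKO mouse 5 weighed on several pairs, and without it r went from -0.08 to 0.68 for Glul with Cyp2e1, from 0.22 to 0.61 for Oat with Cyp2e1, from 0.27 to 0.61 for Glul with Tbx3 and from 0.36 to 0.65 for Axin2 with Tbx3. Glul and Oat were the most alike, with r = 0.74 (permutation p = 0.00598, adjusted p = 0.269) and rho = 0.76 (permutation p = 0.00637, adjusted p = 0.287). Without Floxed mice 2 and 6, the farthest from the Glul median, r was 0.57, and with the mean of each genotype on each slide removed it was 0.44.

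Cyp2e1 and Tbx3 followed with r = 0.64 (permutation p = 0.0126, adjusted p = 0.283) and rho = 0.56 (permutation p = 0.0626, adjusted p = 0.470). Without Floxed mouse 2 and LKO mouse 5, the farthest from the Cyp2e1 median, r was 0.16, and without LKO mouse 5 alone it was 0.48. The size of r thus depended on those mice. With those means removed and all 12 mice it was 0.72. Lgr5 ran against Cyp2e1, with r = -0.56 (permutation p = 0.0509, adjusted p = 0.686) and rho = -0.61 (permutation p = 0.0384, adjusted p = 0.346), and r was -0.68 without the same mice, -0.66 over 12 mice with those means removed and -0.41 without LKO mouse 5 alone.

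**Figure D5:**
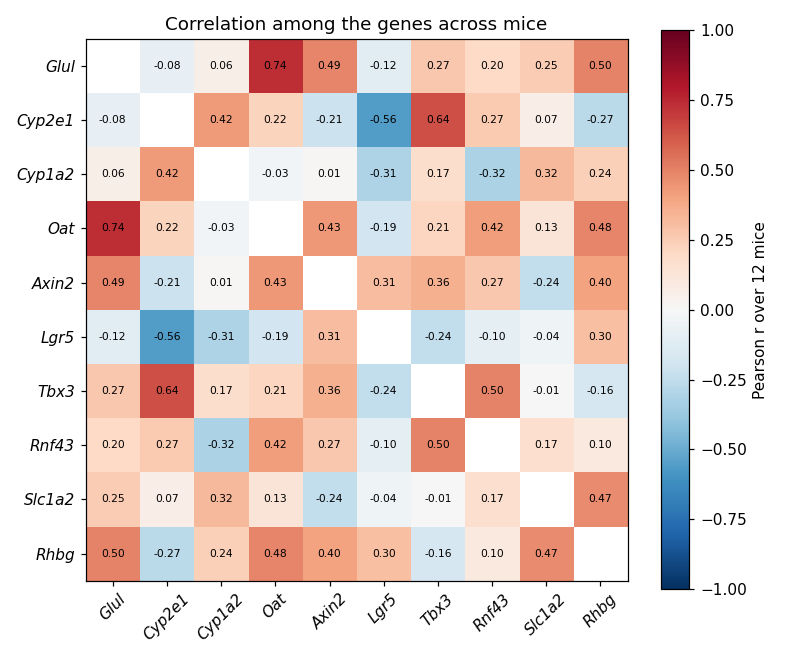
Pearson's r across the 12 mice for each pair of the 10 genes, red above 0 and blue below 0, with the value in each cell. The deepest red cells are Glul with Oat (0.74) and Cyp2e1 with Tbx3 (0.64), and the deepest blue cell is Cyp2e1 with Lgr5 (-0.56).

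For each of the 10 genes, the genes whose values ran most closely with it were found by Pearson's r over the 12 mice among 16894 genes, as a description of the closest of very many and without a test. For Axin2 the closest was Lect2 (r = 0.90, rho = 0.88), a secreted hepatocyte protein known as a β-catenin target, whose window is shown above with the motif. Lect2 spanned 14.15 to 14.53 among Floxed mice and 14.39 to 14.66 among LKO mice, a difference of 0.17 (exact permutation p = 0.0714) that was -0.04 on slide 2. Cct6b (0.86) and Samd9l (0.85) followed for Axin2. Lgr5 was closest to Tmx2 (0.95). Among the closest to Glul were a probe without a gene symbol (0.88) and Esrrb (0.87). Oat was closest to Tex26 (0.87), C77080 (0.87) and Rnf14 (0.86).

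Rhbg was closest to Gamt (0.93), the last enzyme of creatine synthesis, Zdhhc24 (0.91) and Mst1 (0.91). Slc1a2 was closest to Sun2 (0.94), Slc26a1 (0.88) and C2 (0.88). Cyp1a2 was closest to Gpc4 (0.94), Rrbp1 (0.92) and Ppp1r3b (0.88), and Cyp2e1 to Ing5 (0.98), Gapvd1 (0.95) and Wdr26 (0.94). For Cyp2e1 rho was lower than r, at 0.88, 0.77 and 0.71, and LKO mouse 5 was the low point of its values. Tbx3 was closest to Cep162 (0.93), Ppp3ca (0.91) and Golgb1 (0.90). Rnf43 was closest to Lenep (0.88), a probe without a gene symbol (0.86) and Ppp3cb (0.84). Apart from Lect2, none of these closest genes was in the zonation or Wnt lists.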

How the data were processed

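The authors deposited per array the spot intensity from Agilent Feature Extraction (version 9.5.1.1 in the submitters' processing notes, 10.7.1.1 in the file headers), background-corrected and without normalization across arrays, as well as quantile-normalized intensity per probe on a linear scale. The sources differ on the RNA extraction kit. From the deposited processed intensity, log2 values were quantile normalized over 12 arrays, outlier spots (0.298%) were set missing and spots of a probe were averaged. The methods' detection p-value filter was replaced by the deposited flag for signal well above background, required on at least 0.5 of a probe's spots and on all 12 arrays, which kept 20404 probes. Genes were named through RefSeq accessions (94.3% of 28389 matched, table of GRCm38.p6), and the brightest probe stood for a gene. No spot was saturated. The number of arrays limits the precision.

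Genotypes were compared with limma 3.58.1 in R 4.3.3 (lmFit, eBayes, no covariates), with a two-sided exact permutation test over 924 arrangements for single genes and 100000 permutations for correlations. Differences are LKO minus Floxed on the log2 scale. The genes and lists were chosen with earlier results of these data known, so no p adjusted over a list is given. From each list the called genes were named, or the gene with the largest difference where none was called, with fixed genes of the pathway and the 3 genes closest to each of the 10, of which some are not reported here. Lect2's values and promoter, Pecam1 and the lymphocyte markers were brought in after their values were seen. P-values measure the spread between these mice. Unless a block is named, the limma and permutation tests take no account of slide, so slide differences can enter their p-values. The fit was also run on simulated data with independent noise, no slide effect and a shift larger than any difference among the 10 genes. That run does not cover the slide layout of these arrays. Alternatives covered normalization, background correction, the deposited table, filters, probe choice, slide, replicate number, thresholds, the methods' test and each array left out. Background correction by normexp used median signals and an offset of 50. The size of a dim gene's difference under it cannot be compared with that of the main fit. Leaving out both mice labeled LKO 1 and LKO 2 was added after seeing the data. It leaves genotype and slide impossible to tell apart.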

Additional observations from a re-analysis of the deposited data

Results flagged for a closer look

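In 64 groups of 6 mice (32 genes and scores in both genotypes), 6 had a highest or lowest mouse far from the others, where chance gives about 1 in 20. They were LKO mouse 5 for Cyp2e1 (17.29, others 17.79 to 17.99), Car14 (12.39, others 11.93 to 12.08), Lgr4 (5.372, others 6.124 to 6.358) and Pck1 (12.97, others 14.32 to 15.11), the mouse labeled LKO 2 for Oat (12.91, others 13.58 to 13.91), and Floxed mouse 2 for Lgr4 (5.569, others 6.178 to 6.52). LKO mouse 5 held 4 of the 6. Its array had the lowest 75th percentile of intensity, 239, whose part in these values was not tested.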

How the results depend on the processing

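The count of called genes, 1413, was 2791 without the filter on dim probes, 317 with slide as a fixed block, 1 by the methods' test after adjustment, 0 by limma after adjustment, 88 with an absolute log2 difference of at least 1, 2172 without the mice labeled LKO 1 and LKO 2, and 1103 to 1837 with each mouse left out in turn. Of the 10 genes, in place of 1, 2 were called with 75th percentile scaling or slide as a random block, 3 with slide as a fixed block, 0 with the replicate block, the methods' test (also 0 adjusted), limma's adjusted p, a log2 difference of at least 1 or without both mice labeled LKO 1 and LKO 2, and 0 to 2 with each mouse left out. Their median of 0.05 became -0.207 with slide as a fixed block and on slide 2 alone, and their mean deviation of 0.069 became -0.149 on slide 2. The ligand median of -0.021 became 0.0719 with 75th percentile scaling and 0.0909 without the filter. The aryl hydrocarbon receptor median of 0.167 became -0.138 without the filter and 0.0149 with slide as a fixed block and on slide 2.

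Signs turned as follows. With 75th percentile scaling Ctnnb1 was -0.0020, Rspo3 0.00062, Znrf3 0.0315 and Cyp2f2 -0.0197. With normexp Rnf43 was -0.00037 and Rspo3 0.0054. With slide as a fixed block Glul was -0.39, Oat -0.63, Rnf43 -0.086, Rhbg -0.35, Wnt16 -0.27, Ryk 0.10, Sfrp5 0.21, Ctnnb1 -0.025, Apc 0.062, Rspo3 0.051 and Znrf3 0.086. With slide as a random block Cyp2f2 was -0.0133. Without both mice labeled LKO 1 and LKO 2, Wnt2 was -0.087 and Cyp2f2 -0.045. With each mouse left out in turn, differences spanned -0.010 to 0.113 for Glul, -0.039 to 0.192 for Oat, -0.058 to 0.107 for Rnf43, -0.105 to 0.034 for Cyp2e1, -0.030 to 0.027 for Ctnnb1, -0.118 to 0.053 for Apc, -0.132 to 0.151 for Wnt2, -0.056 to 0.060 for Rspo3, -0.223 to 0.048 for Lgr4 and -0.048 to 0.093 for Cyp2f2. The cause was not tested.

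The replicate numbers were not treated as pairs. Same-numbered mice have adjacent animal numbers and the groups were littermates, but no source states that a number marks a shared litter. Deviations of same-numbered mice correlated between -0.235 and 0.317, and not every mouse correlated best with its own number. With the replicate block 1428 genes were called, and Lgr5 (limma p of 0.0502) and Gstm1 (limma p of 0.0650) lost their calls, while Nkd2, Tle1, the hepatocyte marker Apob and the lymphocyte marker Ms4a1 gained one, all lower in LKO. The dim probes of Axin2 and Slc1a2, near background, limit what a second probe can show.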
